A study of Caenorhabditis elegans with 32 samples.

Results

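The 10 sodium-calcium exchanger genes of C. elegans, ncx-1 to ncx-10, were followed in sorted O2-sensing neurons and in whole worms at 2 ages and 2 O2 levels. The members were taken by gene name, and all 10 were found among the 46726 genes of the count table. RNA-seq counts were available for 32 libraries, 4 biological replicates in each of 8 groups. All animals were hermaphrodites of strain KL123, which carries the loss-of-function allele npr-1(ad609) and the integrated transgene iaIs25[Pgcy-37::GFP + unc-119(+)]. They were raised at 21% or 7% O2 and collected as day 1 or day 7 adults. Neurons were sorted by GFP from pooled, dissociated animals, and a whole-worm library came from an aliquot of each sample's suspension, set aside ahead of the sort. The gcy-37 promoter marks URX, AQR and PQR, the neurons that are tonically active at 21% O2 and little active at 7% O2, and more weakly the touch neuron AVM and the chemosensory neurons ASI, so a sorted library can hold all of these cells. Animals of every group, controls included, were fed mex-3 double-stranded RNA from the L3 stage. Only day 7 animals were returned to OP50 bacteria, on day 4, so age cannot be told apart from food at collection or from the time since mex-3 feeding.

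Total counts ran from 5365596 to 30666288 per library. Between 5.33% and 53.8% of a library fell on F31C3.14, annotated as a noncoding RNA, which lowers the depth left for the ncx genes. The gene gcy-37 averaged 327 to 1626 CPM in the 4 sorted groups and 3.61 to 9.39 CPM in the 4 whole-worm groups, where CPM is the count set against the TMM-scaled library size. Other labelled cells were present too. In day 1 sorted libraries at 21% and 7% O2, the 7 touch neuron markers summed to a median of 8779 and 9218 CPM. The 4 ASI markers summed to 2647 and 3804 CPM, and the 6 O2-sensing neuron markers to 6912 and 6064 CPM. Such sums do not give shares of cells, and the part of each cell type in the ncx levels was not tested. The RNAi target mex-3 averaged 8.72 to 132 CPM and was counted in every group.

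Exchangers of this family in the plasma membrane move Ca2+ out of the cytoplasm against its gradient by letting Na+ flow in, and they work beside the Ca2+ pumps that spend ATP. The family has a branch that exchanges Na+ for Ca2+ (NCX, here ncx-1, ncx-2 and ncx-3), a branch that also carries K+ (NCKX, ncx-4 and ncx-5), and a branch related to the mitochondrial exchanger of mammals (NCLX, ncx-6 to ncx-10). In neurons and muscle the plasma membrane exchangers help to clear Ca2+ after activity.

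The genes lie on 4 chromosomes of the WBcel235 build. In the NCX branch, ncx-1 is on chromosome V from 20105633 to 20120673, ncx-2 on V from 5303689 to 5311270 and ncx-3 on IV from 10716648 to 10721755. In the NCKX branch, ncx-4 is on I from 9808904 to 9813075 and ncx-5 on V from 10486361 to 10490098. In the NCLX branch, ncx-6 (III, 9710240 to 9713949) and ncx-7 (III, 9715885 to 9720291) are neighbours on the minus strand with 1935 bases between them. The genes ncx-8 (V, 4983747 to 4987197) and ncx-9 (V, 4991342 to 4995255) are also neighbours on the minus strand, 4144 bases apart, and ncx-10 is on V from 7930475 to 7933098. All 10 are annotated as protein coding and were counted over all exons. Counting ignored strand, and exons of 4 members share bases with a gene on the opposite strand, 1.55% of the exon length of ncx-6, 1.88% of ncx-1, 3.46% of ncx-4 and 5.71% of ncx-9.

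The NCKX genes made up most of the exchanger RNA of day 1 neurons, while the NCX genes made up most of it in whole worms. Levels of different genes are compared as CPM per kb of exon. Summed over the 10 genes, the level was 485 ± 83.7 CPM per kb (mean ± SD, n = 4 here and below) in day 1 neurons at 21% O2 and 311 ± 125 at 7% O2. In day 7 neurons it was 63.3 ± 32.6 at 21% O2 and 33.4 ± 8.99 at 7% O2, and the 4 whole-worm groups averaged 25.7 to 51.2. The share of ncx-4 and ncx-5 in this sum was 80.9% ± 4.21 in day 1 neurons at 21% O2, 72.0% ± 10.6 at 7% O2, 35.4% ± 12.7 in day 7 neurons at 21% O2 and 10.4% ± 5.35 at 7% O2. In whole worms the NCKX share averaged 2.74% to 6.49%, and ncx-1 to ncx-3 held 73.7% to 92.6%. These shares are descriptions and were not tested.

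**Figure D1:**
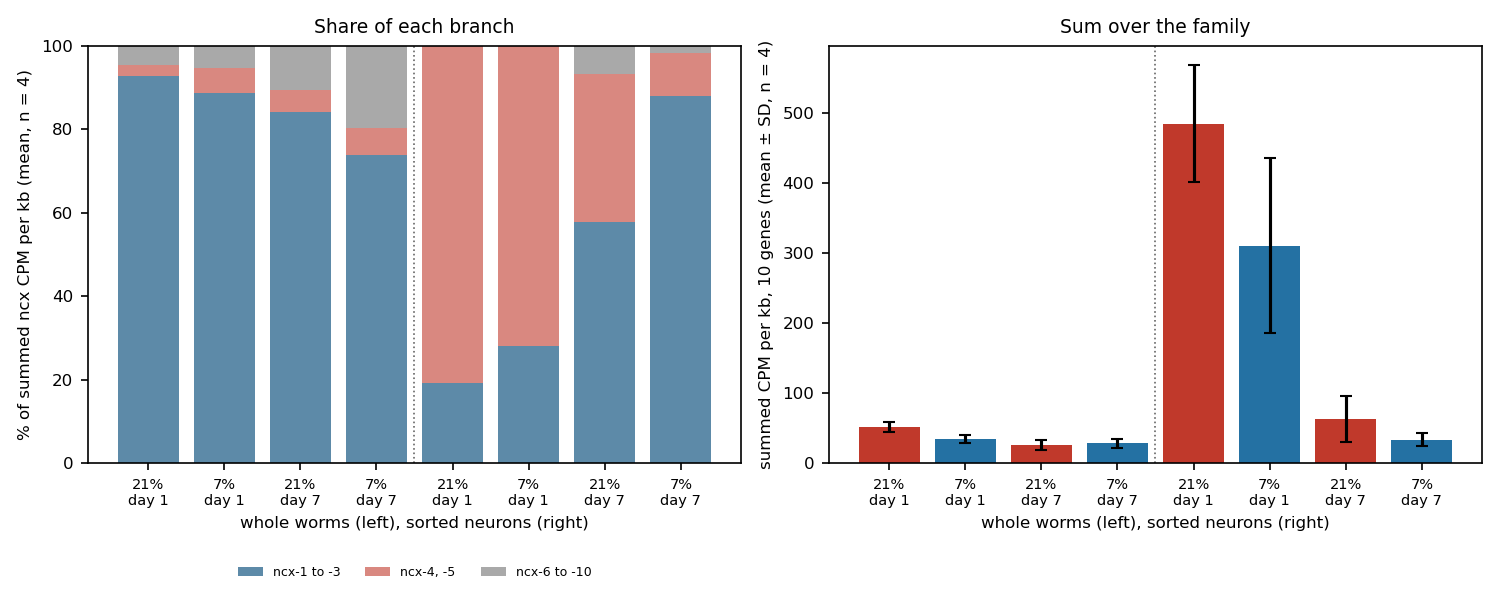
Left, the mean share of each branch in the summed CPM per kb of the 10 ncx genes (y axis, %) for the 8 groups. Right, that sum itself (bars, mean ± SD of 4 libraries), highest in day 1 neurons at 21% O2 (485) and between 25.7 and 51.2 in whole worms.

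Within day 1 neurons at 21% O2, ncx-5 stood first with 342 ± 90.2 CPM per kb. It was followed by ncx-2 with 66.1 ± 6.2 and ncx-4 with 52.3 ± 12.5, whose libraries overlapped. Next came ncx-3 with 13.8 ± 6.97 and ncx-1 with 10.3 ± 1.87, which also overlapped. Each of ncx-6 to ncx-10 averaged at most 0.0743 CPM per kb there. In day 1 neurons at 7% O2 the order was ncx-5 with 167 ± 110, ncx-4 with 63.2 ± 26.0, ncx-2 with 59.2 ± 26.0, ncx-3 with 13 ± 4.53 and ncx-1 with 7.94 ± 3.66, and only ncx-2 and ncx-3 stood apart among neighbours. In day 7 neurons at 21% O2 it was ncx-5 with 17.8 ± 8.70, ncx-3 with 14.9 ± 6.27, ncx-2 with 9.79 ± 8.55, ncx-1 with 8.86 ± 5.69 and ncx-4 with 4.50 ± 3.82, each overlapping the next. The levels by then lay within a few fold of each other. In day 7 neurons at 7% O2 the order was ncx-3 with 14.6 ± 2.27, ncx-1 with 7.94 ± 3.95, ncx-2 with 6.71 ± 4.50, ncx-5 with 2.28 ± 1.35 and ncx-4 with 1.29 ± 0.979, and each neighbouring pair in that order overlapped. In whole worms ncx-2 averaged highest in each of the 4 groups, with 14.4 to 27.3 CPM per kb.

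Neurons were compared with whole worms to ask which exchangers stand out in the sorted cells. A gene was called when it differed by at least 1.5-fold with a p, adjusted by Benjamini-Hochberg over all genes tested, under 0.1 in edgeR's quasi-likelihood test, the test behind every fold change and adjusted p below, with log2 fold changes given with their standard errors (SE). On day 1 at 21% O2, 5 members had enough counts to be tested, and 3 were called higher in neurons (ncx-2, ncx-4 and ncx-5) and 0 lower, against 30% of 10780 genes higher and 22.8% lower. At 7% O2, 4 of 6 tested members were higher (ncx-2, ncx-3, ncx-4 and ncx-5) and 1 lower (ncx-8), against 26.8% and 19.5% of 10068 genes. On day 7 at 21% O2, 3 of 6 were higher (ncx-1, ncx-3 and ncx-5) and 0 lower, against 23.5% and 16.8% of 9295 genes. At 7% O2, 2 of 6 were higher (ncx-1 and ncx-3) and 2 lower (ncx-2 and ncx-8), against 24.7% and 21.1% of 9627 genes. Wherever ncx-5 or ncx-8 was called, it had enough counts to be tested only through the sample type where it is higher. Those calls add no support beyond the levels themselves. The median log2 fold change of the members tested was 1.43, 1.51, 1.73 and 0.88 in these comparisons, and that of all genes tested 0.02, -0.07, 0.09 and 0.04. Scaling by DESeq2's size factors (RLE) in place of TMM moved the median of all genes by -0.14 on day 1 at 21% O2 and changed no call of a member. In libraries of many cells, fewer cells of a type and less RNA per cell cannot be told apart.

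The gene ncx-5, an NCKX exchanger, showed the highest neuron level and the widest range of any member. In day 1 neurons at 21% O2 its 4 libraries held 629, 547, 988 and 756 CPM in the order of their replicate numbers, and at 7% O2 154, 240, 346 and 688 CPM. In day 7 neurons it had 37.6, 13.3, 57.9 and 42.8 CPM at 21% O2 and 5.43, 1.15, 4.76 and 8.12 CPM at 7% O2. The 16 whole-worm libraries ran from 0 to 3.62 CPM. Every day 1 neuron library lay above every day 7 neuron library, and on day 7 every library at 21% O2 lay above every library at 7% O2. Against whole worms, ncx-5 was higher on day 1 by a log2 fold change of 10.07 (SE 0.62, adjusted p = 3.60e-07) at 21% O2 and 10.17 (SE 0.65, adjusted p = 2.89e-06) at 7% O2. On day 7 it was higher by 5.07 (SE 0.99, adjusted p = 0.00310) at 21% O2. At 7% O2 the log2 difference was 2.32 (SE 1.24, adjusted p = 0.163), the groups overlapped, and the gene was not called. It was called without whole-worm replicate 4 (4.18, adjusted p = 0.0484), the highest of its group, or without neuron replicate 2 (2.71, adjusted p = 0.0971). Whole worms held only 37 counts of ncx-5 per group on day 1 at 21% O2 and 14 at 7% O2, and 31 and 28 on day 7, so these folds rest on values near the floor. In all these fits ncx-5 passed the filter on low counts only through the neurons, where it is higher. The calls therefore add no support beyond the levels.

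The other NCKX gene, ncx-4, was also much higher in day 1 neurons than in whole worms. It had 134, 86.5, 84.5 and 125 CPM in day 1 neurons at 21% O2 and 80.9, 190, 89.1 and 159 CPM at 7% O2. The day 7 neurons held 1.45, 5.45, 19.7 and 10.4 CPM at 21% O2 and 4.78, 0.399, 3.85 and 1.60 CPM at 7% O2. Whole-worm libraries ran from 0.126 to 9.0 CPM, below every day 1 neuron library and overlapping both day 7 groups. The log2 fold change against whole worms was 5.85 (SE 0.65, adjusted p = 2.38e-05) at 21% O2 and 5.17 (SE 0.66, adjusted p = 0.000155) at 7% O2 on day 1. On day 7 it was 2.40 (SE 1.08, adjusted p = 0.114) at 21% O2 and -0.02 (SE 1.10, adjusted p = 0.989) at 7% O2, neither of them called. With DESeq2 the day 7 comparison of ncx-4 at 21% O2 passed, at a log2 fold change of 2.33 (adjusted p = 0.0565), and it also passed in edgeR without whole-worm replicate 2 (3.25, adjusted p = 0.0901) or neuron replicate 1 (2.76, adjusted p = 0.0705).

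**Figure D2:**
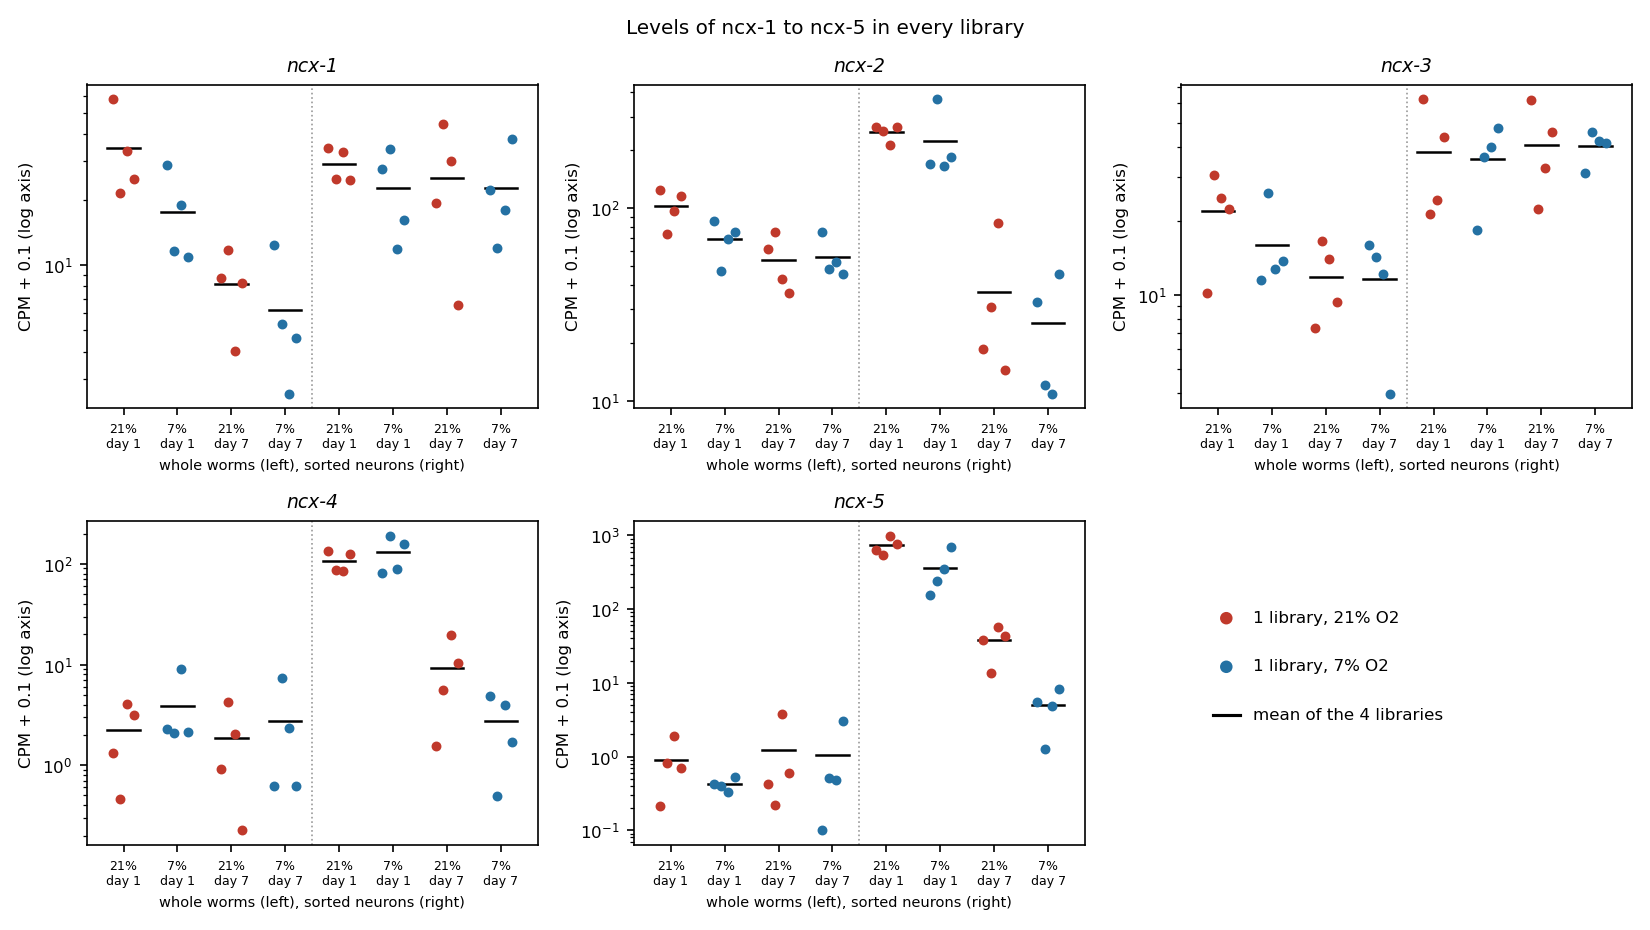
CPM plus 0.1 on a log axis for ncx-1 to ncx-5 in each of the 32 libraries (points, red 21% O2, blue 7% O2) with the mean of each group (bars), whole worms left of the dotted line and sorted neurons right of it. The libraries of ncx-5 fall from 547 to 988 CPM in day 1 neurons at 21% O2 to 1.15 to 8.12 CPM in day 7 neurons at 7% O2, while those of ncx-3 stay between 18.3 and 62.2 CPM in all neuron groups.

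In the NCX branch, ncx-2 was the member with the highest CPM in whole worms and was enriched in neurons on day 1 only by a few fold. Day 1 neurons had 263, 254, 214 and 263 CPM at 21% O2 and 171, 369, 166 and 184 CPM at 7% O2. Day 1 whole worms had 124, 73.5, 97.0 and 116 CPM at 21% O2 and 86.2, 47.3, 69.3 and 74.8 CPM at 7% O2. All neuron libraries of day 1 lay above all whole-worm libraries of that day. The log2 fold change was 1.43 (SE 0.23, adjusted p = 0.000385) at 21% O2 and 1.76 (SE 0.34, adjusted p = 0.00227) at 7% O2. The library with 369 CPM, replicate 2 at 7% O2, also had the highest summed level of the 7 touch neuron markers in its group, 28353 CPM beside 8250 to 9314 CPM in the other 3, with all 7 detected. Its summed level of the 7 markers of all neurons was the highest of the group as well, 24179 CPM beside 13068 to 16444 CPM. The part of any cell type in the value was not tested.

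On day 7 ncx-2 no longer stood above whole worms. Day 7 neurons had 18.4, 30.6, 83.9 and 14.3 CPM at 21% O2 and 32.5, 12, 10.8 and 45.7 CPM at 7% O2. Day 7 whole worms had 61.7, 75.5, 42.9 and 36.3 CPM at 21% O2 and 75.6, 48.6, 52.5 and 45.3 CPM at 7% O2. The groups overlapped at both O2 levels. The log2 difference was -0.53 (SE 0.54, adjusted p = 0.486) at 21% O2, and without neuron replicate 3 ncx-2 was called lower there (-1.33, adjusted p = 0.0420). At 7% O2 ncx-2 was called lower in neurons, by -1.16 (SE 0.47, adjusted p = 0.0681). That call was lost without whole-worm replicate 1 (-0.94, adjusted p = 0.203), 2 (-1.24, adjusted p = 0.102) or 3 (-1.21, adjusted p = 0.114) and without neuron replicate 2 (-0.87, adjusted p = 0.145) or 3 (-0.85, adjusted p = 0.146).

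The gene ncx-3 averaged 35.5 to 40.7 CPM in the 4 neuron groups. It had 62.2, 21.1, 24.3 and 43.7 CPM in day 1 neurons at 21% O2, 18.3, 36.2, 39.7 and 47.6 CPM at 7% O2, and 22.2 to 61.9 CPM in the 8 day 7 neuron libraries. Day 1 whole worms ranged from 10.1 to 30.6 CPM and day 7 whole worms from 3.86 to 16.4 CPM, so the neurons overlapped whole worms on day 1 and lay above them on day 7. The log2 fold change against whole worms was 0.95 (SE 0.46, adjusted p = 0.116) at 21% O2 on day 1, not called, and 1.25 (SE 0.49, adjusted p = 0.0667) at 7% O2. On day 7 it was 1.81 (SE 0.47, adjusted p = 0.0136) and 1.79 (SE 0.45, adjusted p = 0.00797). The day 1 call at 7% O2 was lost without whole-worm replicate 1 (1.09, adjusted p = 0.181), 3 (1.13, adjusted p = 0.178) or 4 (1.18, adjusted p = 0.162), without neuron replicate 3 (1.17, adjusted p = 0.111) or 4 (1.08, adjusted p = 0.118), without the filter on low counts (adjusted p = 0.141), and with the replicate number as a block (1.25, adjusted p = 0.133). At 21% O2 on day 1 ncx-3 was called without neuron replicate 2 (1.16, adjusted p = 0.0618).

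The gene ncx-1 was close to whole worms on day 1 and above them on day 7. Neurons held 34.4, 24.9, 33.1 and 24.4 CPM on day 1 at 21% O2, 27.5, 34.3, 11.8 and 16 CPM at 7% O2, 19.2, 44.2, 30.1 and 6.45 CPM on day 7 at 21% O2 and 21.9, 11.9, 17.8 and 38.0 CPM at 7% O2. Whole worms held 57.8, 21.3, 33.5 and 24.7 CPM and 28.6, 11.5, 18.8 and 10.8 CPM on day 1. On day 7 they held 8.58, 11.6, 3.92 and 8.16 CPM at 21% O2 and 12.3, 5.26, 2.46 and 4.50 CPM at 7% O2. The neuron and whole-worm groups overlapped in all 4 comparisons. The log2 fold change was -0.10 (SE 0.38, adjusted p = 0.850) and 0.44 (SE 0.55, adjusted p = 0.561) on day 1, not called, and 1.65 (SE 0.64, adjusted p = 0.0698) and 1.84 (SE 0.60, adjusted p = 0.0294) on day 7. At 21% O2 the day 7 call was lost without whole-worm replicate 1 (1.67, adjusted p = 0.144), 3 (1.41, adjusted p = 0.179) or 4 (1.64, adjusted p = 0.144) and without neuron replicate 2 (1.23, adjusted p = 0.194) or 3 (1.56, adjusted p = 0.116), and with the replicate number as a block (1.46, adjusted p = 0.138).

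The comparison of day 7 with day 1 asked which exchangers change with age. In neurons at 21% O2, 3 of 5 tested members fell (ncx-2, ncx-4 and ncx-5) and 0 rose, against 18% of 11720 genes lower and 12.1% higher. At 7% O2 the same 3 fell and 0 rose, against 21% and 15.4%. The median log2 change of the members tested was -2.74 at 21% O2 and -3.139 at 7% O2, beside -0.20 and -0.28 over all genes tested. Scaling by the size factors of DESeq2 in place of TMM moved the median of all genes by 0.29 and 0.22, and the calls of ncx-2, ncx-4 and ncx-5 held with it.

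Both NCKX genes and ncx-2 were much lower in the sorted libraries of day 7, in which most neuron markers were lower too. At 21% O2 ncx-5 fell by 4.25 on the log2 scale (SE 0.57, adjusted p = 2.06e-05), a 19-fold lower level, and at 7% O2 it fell by 6.21 (SE 0.63, adjusted p = 5.48e-07), 74-fold lower. The log2 change of ncx-4 was -3.51 (SE 0.71, adjusted p = 0.00117) at 21% O2 and -5.61 (SE 0.79, adjusted p = 2.20e-05) at 7% O2. That of ncx-2 was -2.74 (SE 0.55, adjusted p = 0.00105) and -3.139 (SE 0.56, adjusted p = 0.000254). For all 3 genes, no day 7 library overlapped the day 1 libraries at the same O2 level. In contrast, ncx-1 (log2 change -0.21, SE 0.62, and 0.00, SE 0.62) and ncx-3 (0.12, SE 0.50, and 0.18, SE 0.50) were not called.

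Markers moved with these values. In sorted libraries all 6 markers of O2-sensing neurons, gcy-37 included, were lower on day 7 at both O2 levels, with a median log2 change of -4.24 at 21% O2 and -4.90 at 7% O2. Their summed level had a median of 6912 and 6064 CPM on day 1, at 21% and 7% O2, and 703 and 437 CPM on day 7. Of 7 markers of all neurons 6 were lower at both O2 levels (median -3.10 and -3.05), and all 7 touch neuron markers were (median -3.13 and -4.12). Of 4 intestine markers tested, 2 were higher and 1 lower on day 7 at 21% O2 and 3 higher at 7% O2. The summed level of all 6 had a median of 1013 and 900 CPM on day 1 and 4993 and 6605 CPM on day 7. The fall of ncx-5 was as large as the median of the O2-sensing neuron markers at 21% O2 and larger at 7% O2, and the part of the cell makeup of the sort in these changes was not tested. Of 4 epidermis markers tested, 3 were higher and 1 lower on day 7 at each O2 level (median 4.38 and 5.20), and the summed level of all 5 had a median of 69.8 and 83.4 CPM on day 1 and 224 and 264 CPM on day 7.

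In whole worms ncx-1, ncx-2 and ncx-9 changed with age. At 21% O2, 2 of 6 tested members fell (ncx-1 and ncx-2) and 0 rose, against 10.7% of 10894 genes lower and 7.92% higher. At 7% O2, 1 fell (ncx-1) and 1 rose (ncx-9), against 8.36% and 7.49%. The log2 change of ncx-1 was -2.02 (SE 0.45, adjusted p = 0.00406) at 21% O2, where day 7 libraries lay below all day 1 libraries, and -1.47 (SE 0.45, adjusted p = 0.0348) at 7% O2, where the groups overlapped. At 7% O2 the call was lost without day 1 replicate 1 (-1.12, adjusted p = 0.132), without day 7 replicate 3 (-1.23, adjusted p = 0.102) and in a model of all 32 libraries (-1.497, adjusted p = 0.282). At 21% O2 that of ncx-2 was -0.86 (SE 0.24, adjusted p = 0.0171), and its call was lost in the model of all 32 libraries (-0.92, adjusted p = 0.431). At 7% O2 it was -0.31 (SE 0.24, adjusted p = 0.457). Of the 6 body wall muscle markers, 6 were lower on day 7 in whole worms at 21% O2 and 5 at 7% O2, with a summed level whose median went from 9102 to 1811 CPM and from 5720 to 2465 CPM, and their part in the fall of ncx-1 was not tested. The genes ncx-3 and ncx-4 were not called in whole worms, with log2 changes of -0.84 and -0.18 at 21% O2 and -0.46 and -0.51 at 7% O2. With no low-count filter, ncx-3 passed at 21% O2 (-0.86, adjusted p = 0.0682), as it did without day 1 replicate 1 (-1.09, adjusted p = 0.0566).

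The fall with age was tested for a difference between sample types with an interaction term over all 32 libraries. At 21% O2 the change of 3 of 8 tested members was more negative in neurons than in whole worms, ncx-2 by -1.83 (SE 0.61, adjusted p = 0.0367), ncx-4 by -3.29 (SE 1.2, adjusted p = 0.0582) and ncx-5 by -4.82 (SE 1.12, adjusted p = 0.00300), against 21.6% of 13327 genes called in either direction. At 7% O2 the same 3 were called, ncx-2 at -2.82 (SE 0.62, adjusted p = 0.00101), ncx-4 at -5.10 (SE 1.22, adjusted p = 0.00265) and ncx-5 at -7.74 (SE 1.23, adjusted p = 2.21e-05), against 29.5%. The filter on low counts left ncx-5 out of the age comparisons within whole worms. Over the 4 whole-worm libraries it held 37 counts on day 1 and 31 on day 7 at 21% O2. At 7% O2 it held 14 and 28, with 23 of the 28 in replicate 4. Leaving out 1 library at a time, its 7% O2 term ran from -8.20 to -5.78 and stayed called. At 21% O2 the call was lost for ncx-2 without day 1 whole-worm replicate 2 (-1.51, adjusted p = 0.125), for ncx-4 without day 1 whole-worm replicate 1 (-3.09, adjusted p = 0.104) or 2 (-2.81, adjusted p = 0.128) or day 7 whole-worm replicate 2 (-2.41, adjusted p = 0.218), and for ncx-5 without day 7 whole-worm replicate 3 (-3.03, adjusted p = 0.135). Without day 7 neuron replicate 4 at 21% O2 the interaction called 5 members, ncx-1 (2.09, adjusted p = 0.0562) and ncx-9 (5.92, adjusted p = 0.0810) being added. Some other fits of the 21% O2 term that left out a library also added ncx-1, ncx-8 or ncx-9. The ncx-9 value rests on replicate 3 of the day 7 neurons, which held 386 of the 388 counts of its group.

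**Figure D3:**
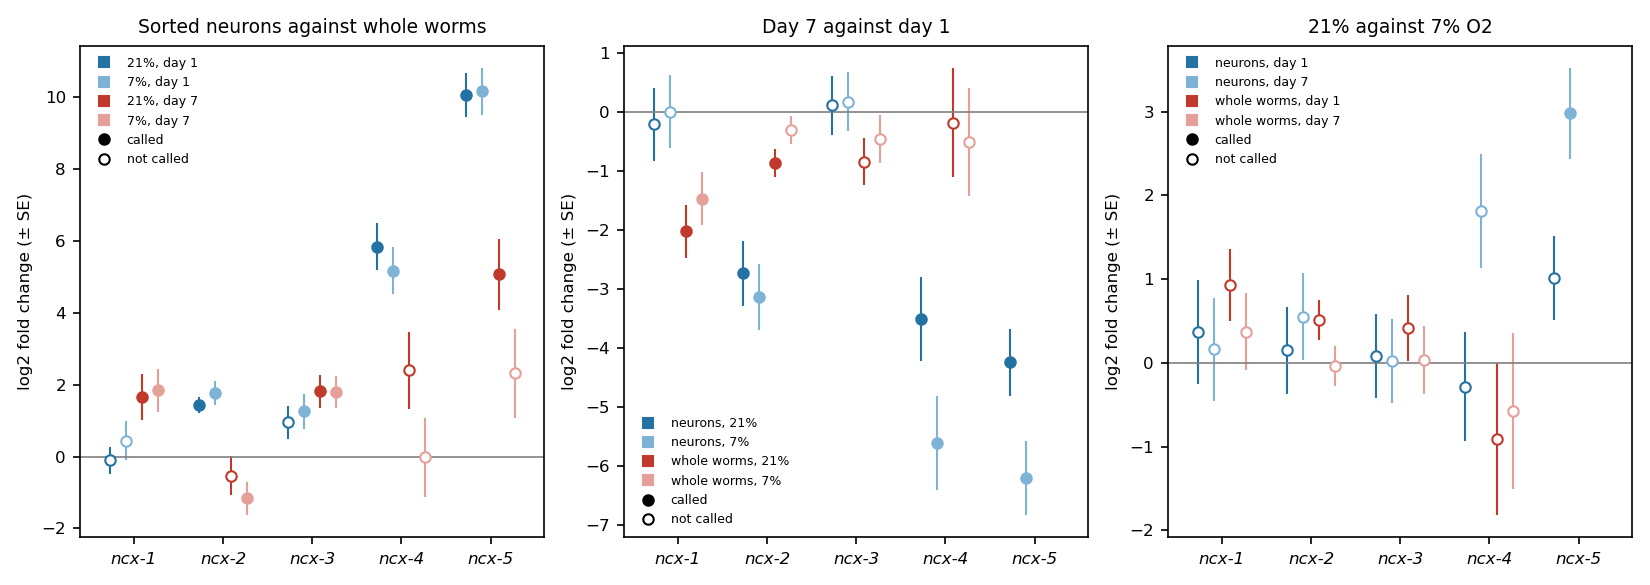
Log2 fold change with its standard error (y axis) for ncx-1 to ncx-5 in the comparisons of sorted neurons with whole worms, of day 7 with day 1 and of 21% with 7% O2. Filled points were called (at least 1.5-fold, adjusted p under 0.1) and open points were not. The falls with age in neurons are those of ncx-2, ncx-4 and ncx-5, from -2.74 to -6.21, and the only filled point between O2 levels is ncx-5 in day 7 neurons (2.98).

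The comparison of 21% with 7% O2 asked whether the exchangers differ between libraries of animals raised at the 2 O2 levels. In the sorted libraries this is not a comparison of O2-sensing neurons alone, since the paper found that AVM and ASI did not respond to O2. On day 1, 0 of 5 tested members were called in neurons by edgeR, 0 had an unadjusted p under 0.05 and DESeq2 called 0, against 0.0939% of 11720 genes called. On day 7, 1 of 5 was higher at 21% O2 (ncx-5) and 0 lower, against 0.137% of genes higher and 0.0171% lower. In whole worms edgeR called 0 of 6 on day 1, against 0.00918% of 10894 genes, and 0 of 6 on day 7, against 0.0551%. DESeq2 also called 0 on both days, and 2 members on day 1 (ncx-1 and ncx-2) and 0 on day 7 had an unadjusted p under 0.05.

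In day 7 neurons ncx-5 averaged 37.9 ± 18.5 CPM at 21% O2 and 4.86 ± 2.87 CPM at 7% O2. The groups did not overlap, and the log2 fold change was 2.98 (SE 0.54, adjusted p = 0.0348). The call held without each of the 8 libraries (2.64 to 3.34, adjusted p = 0.0131 to 0.0880) and was lost when only the 8 libraries of these groups were fitted (2.97, adjusted p = 0.543). On day 1 the means were 730 ± 192 and 357 ± 234 CPM, replicate 4 at 7% O2 lay inside the range of the 21% O2 libraries, and the log2 difference was 1.01 (SE 0.50, adjusted p = 0.727). The O2 effect differed between ages by 1.96 (SE 0.72, adjusted p = 0.585), which was not called, and passed only without the filter on low counts (1.96, adjusted p = 0.0590). Against the O2 effect in whole worms the difference on day 7 was 2.74 (SE 1.13, adjusted p = 0.478). The gene ncx-4 had a log2 difference of 1.82 (SE 0.68, adjusted p = 0.583) on day 7, where its groups overlapped, and -0.28 (SE 0.65, adjusted p = 1) on day 1. None of the 6 O2-sensing neuron markers was called between O2 levels in neurons on day 7, with a median log2 difference of 0.95, and those of ASI (4 markers) had a median of 1.18 and those of all neurons 0.30.

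With the low-count filter, edgeR called no member in the interactions with O2. In neurons the age by O2 term called 0 of 5 members with edgeR and 0 with DESeq2, with 2 at an unadjusted p under 0.05 (ncx-4 and ncx-5), against 0.0597% of genes, and without the filter it called ncx-5 (1.96, adjusted p = 0.0590). In whole worms it called 0 of 6 by either tool, with 0 at an unadjusted p under 0.05, against 0.211%. The sample type by O2 term called 0 of 8 on day 1, against 0.03% of 13327 genes, and 0 of 8 on day 7, against 0.0375%. There 0 members had an unadjusted p under 0.05 on day 1 and 3 on day 7 (ncx-5, ncx-8 and ncx-9), and DESeq2 called 1 on each day (ncx-8 and ncx-9). Without the filter edgeR called ncx-5, ncx-8 and ncx-9 on day 7. In day 7 neurons at 21% O2, all 499 counts of ncx-8 and 386 of the 388 of ncx-9 lay in replicate 3, so their values in this term rest on 1 library.

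The counts of ncx-5 and ncx-4 were also set against those of gcy-37, whose promoter drives the GFP, within each sorted library. For ncx-5 the ratio was 0.385, 0.353, 0.587 and 0.543 in day 1 neurons at 21% O2 and 0.172, 0.136, 0.213 and 0.310 at 7% O2. In day 7 neurons it was 0.0708, 0.0343, 0.124 and 0.210 at 21% O2 and 0.0176, 0.00269, 0.0144 and 0.0338 at 7% O2. At each age every library at 21% O2 lay above every library at 7% O2, on day 7 by a narrow margin (0.0343 against 0.0338). At each O2 level every day 1 library lay above every day 7 library.

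On the log2 scale the ncx-5 ratio was higher at 21% O2 by 1.2 on day 1 and by 2.85 on day 7, and it was lower on day 7 by -2.36 at 21% O2 and by -4.01 at 7% O2. Each of these gave p = 0.0286 in a two-sided exact permutation test of 4 against 4 libraries, the smallest value this design allows, and 0.0457 after Benjamini-Hochberg adjustment over the 8 tests of both genes. The tests of these ratios were chosen after the values had been seen, so for ncx-5 they describe groups already known to lie apart. The ncx-4 ratio was 0.0502 to 0.0895 on day 1 at 21% O2 and 0.0548 to 0.108 at 7% O2, and 0.00273 to 0.0508 and 0.000931 to 0.0155 on day 7. Its groups overlapped between O2 levels (exact permutation p = 0.486 on day 1 and 0.286 on day 7). With age it was lower at 7% O2 (-3.77, exact permutation p = 0.0286, adjusted 0.0457) and by -1.99 at 21% O2, where the groups overlapped (exact permutation p = 0.0571, adjusted 0.0762). The counts of gcy-37 fell with age as well, with log2 changes of -1.96 (SE 0.31) and -2.31 (SE 0.31).

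These ratios rest on gcy-37, which fell with age far less than the list of 6 O2-sensing neuron markers it belongs to (median -4.24 and -4.90). Set against the summed counts of the other 5 (gcy-32, gcy-34, gcy-35, gcy-36 and flp-8), a denominator added after the values were seen, the ncx-5 ratio was 0.115 to 0.142 in day 1 neurons and 0.0458 to 0.330 in day 7 neurons at 21% O2. At 7% O2 it was 0.0570 to 0.129 on day 1 and 0.00791 to 0.103 on day 7. All 4 comparisons overlapped. The log2 difference with age was 0.19 at 21% O2 (exact permutation p = 0.83) and -1.22 at 7% O2 (exact permutation p = 0.171). Between O2 levels it was 0.64 on day 1 and 2.04 on day 7 (exact permutation p = 0.0857 for each, adjusted 0.305 over 8 tests). For ncx-4 the 4 exact permutation p ran from 0.114 to 0.629. By this denominator no difference of ncx-5 or ncx-4 with age or O2 passed.

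**Figure D4:**
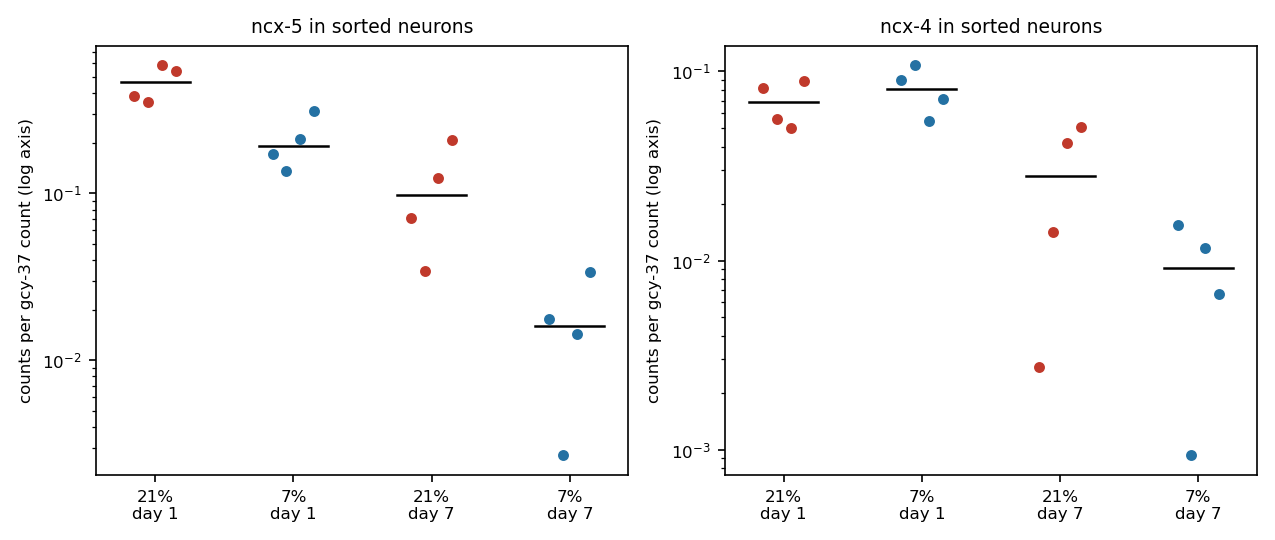
Counts of ncx-5 (left) and ncx-4 (right) divided by those of gcy-37 in the same sorted library, on log axes, for the 4 neuron groups (points are libraries, red 21% O2, blue 7% O2, bars are medians). The 21% O2 libraries of ncx-5 lie above those at 7% O2 at both ages, 0.353 to 0.587 above 0.136 to 0.310 on day 1 and 0.0343 to 0.210 above 0.00269 to 0.0338 on day 7, while those of ncx-4 overlap.

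The NCLX branch was close to absent from sorted neurons, apart from a single library. In 15 of the 16 neuron libraries ncx-8 had 0 to 0.700 CPM and ncx-9 0 to 0.309 CPM. Replicate 3 of the day 7 neurons at 21% O2 held 499 counts of ncx-8 (38.8 CPM) and 386 of ncx-9 (30.0 CPM), where the other 3 libraries of its group had 0 counts of ncx-8 and at most 2 of ncx-9. In that library the 4 pharynx markers summed to 111 CPM, with 2 of 4 above 0, beside 7.91 to 39.7 CPM in the other 3, and the 6 intestine markers to 4717 CPM beside 4504 to 10947 CPM, and the part of other cells in these counts was not tested.

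Whole worms held low levels of both genes. For ncx-8 they had 0, 4.40, 1.48 and 3.55 CPM on day 1 at 21% O2 and 1.2, 1.65, 3.86 and 1.83 CPM at 7% O2, and on day 7 5.11, 5.07, 4.68 and 1.51 CPM at 21% O2 and 4.42, 8.09, 11 and 5.40 CPM at 7% O2. At 7% O2 on day 1, ncx-8 had 89 counts over the 4 whole-worm libraries and 0 over the 4 neuron libraries, which makes it at least 30.5-fold lower in neurons (against 3 counts over the group, counting error only), and it was called (adjusted p = 0.00339). It passed the filter there only through whole worms, where it is higher, so the call adds no support beyond the counts. At 21% O2 on day 1 the low-count filter left ncx-8 out, and it was kept and called lower without whole-worm replicate 1 (adjusted p = 0.0537) or neuron replicate 4 (adjusted p = 0.0214). That whole-worm library had 0 counts of ncx-8, and that neuron library held 6 of the 7 counts of its group. In both fits ncx-8 passed the filter only through whole worms, so these calls add no support. On day 7 its log2 difference at 7% O2 was -5.24 (SE 1.42, adjusted p = 0.0123), with 10 counts in 1 neuron library and 0 in the others. That call too passed the filter only through whole worms and adds no support. At 21% O2 on day 7 it differed by 1.27 (SE 1.80, adjusted p = 0.625), and with the replicate number as a block by -4.63 (adjusted p = 0.148). Without neuron replicate 3 the neurons held 0 counts beside 116 in whole worms, and ncx-8 was called lower (adjusted p = 0.00692), again with the filter passed only through whole worms.

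The gene ncx-9, which encodes a mitochondrial Na+/Ca2+ exchanger, had 0.326, 0.177, 0.117 and 0.323 CPM in day 1 whole worms at 7% O2 and 4.63, 5.53, 6.24 and 0 CPM on day 7. Day 7 replicates 1, 2 and 3 thus lay above every day 1 library, and replicate 4 had 0 counts. The log2 fold change was 4.07 (SE 1.26, adjusted p = 0.0351), and the call was lost in the model of all 32 libraries (4.06, adjusted p = 0.449). At 21% O2 the change of ncx-9 was 1.33 (SE 1.16, adjusted p = 0.480), and it was called without day 1 replicate 3 (3.40, adjusted p = 0.0997). Between neurons and whole worms on day 7 at 7% O2 the filter on low counts left ncx-9 out. Whole worms held 44, 41, 33 and 0 counts, and the 4 neuron libraries held 1 count together. It was kept and called lower in neurons in 5 of the 8 fits that left out a library (adjusted p = 0.00405 to 0.0205). In those fits ncx-9 passed the filter only through the whole-worm libraries, where it is higher, so these calls add no support. For ncx-8 the 4 day 7 whole-worm libraries at 7% O2 lay above the 4 of day 1, and its change of 1.77 (SE 0.77, adjusted p = 0.144) was not called but passed with DESeq2 (1.79, adjusted p = 0.0766), without the filter on low counts (adjusted p = 0.0477) and with only these groups fitted (adjusted p = 0.02).

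**Figure D5:**
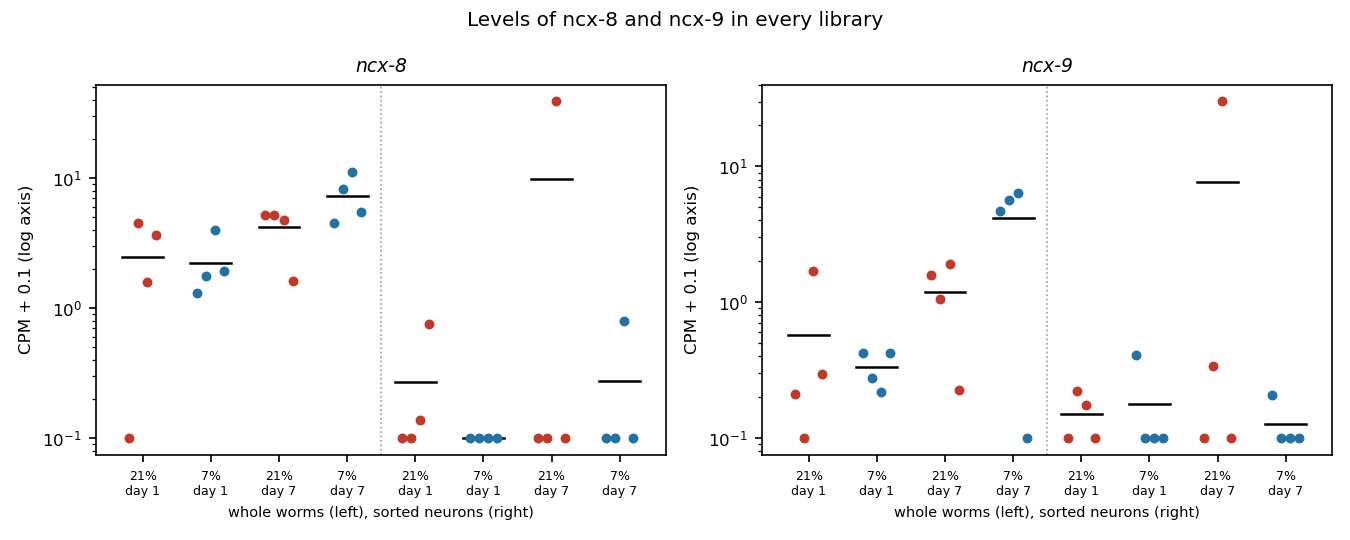
CPM plus 0.1 on a log axis for ncx-8 and ncx-9 in each of the 32 libraries (points, red 21% O2, blue 7% O2) with the mean of each group (bars), whole worms left of the dotted line and sorted neurons right of it. A library at 0 sits at 0.1, and the single high neuron point in each panel (38.8 and 30.0 CPM) is replicate 3 of the day 7 neurons at 21% O2.

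The remaining members were rarely counted. The neighbours ncx-6 and ncx-7 reached at most 1.5 and 1.52 CPM in any library and were kept in no comparison by the filter on low counts, and ncx-10 reached 3.92 CPM and was tested only in the interactions over all 32 libraries. Over the 4 libraries of a group ncx-6 had 1 to 26 counts, and ncx-7 had 0 in both day 1 neuron groups, 1 and 8 in the day 7 neuron groups and 4 to 42 in the whole-worm groups. Against whole worms on day 1, ncx-7 was at least 16.1-fold lower in neurons at 21% O2 (0 against 42 counts) and at least 7.87-fold lower at 7% O2 (0 against 23 counts), by the same floor of 3 counts over the group. Much of this rested on whole-worm replicate 1, since the 4 whole-worm libraries held 26, 1, 0 and 15 counts at 21% O2 and 14, 6, 2 and 1 at 7% O2. Without replicate 1 the bounds were 9.19-fold and 3.89-fold. Without the filter ncx-7 was called lower at 21% O2. For ncx-10 the counts at 7% O2 on day 1 were 0 against 28, at least 9.58-fold lower. In the main fits within a sample type, ncx-6, ncx-7 and ncx-10 were not tested between ages or O2 levels. The main interactions over all 32 libraries did not call ncx-10. With the replicate number as a block, the sample type by age term at 7% O2 did.

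For comparison, 12 other genes of Ca2+ removal and the Na+ gradient were read from the same fits, 11 of them tested (nkb-2 was not). Between O2 levels edgeR called 0 of 11 in neurons at either age, with 1 at an unadjusted p under 0.05 on day 1 and 0 on day 7, while ncx-5 was called on day 7. With age in neurons 3 rose and 4 fell at both O2 levels, against 12.1% of genes higher and 18% lower at 21% O2 and 15.4% and 21% at 7% O2. The median log2 change of the list was -0.81 at 21% O2 and -0.51 at 7% O2, beside -0.20 and -0.28 over all genes. The plasma membrane Ca2+ pump genes moved in different directions. The level of mca-3 was 1825 to 2857 CPM in day 1 and 304 to 579 CPM in day 7 neurons at 21% O2, a log2 change of -2.31 (SE 0.31, adjusted p = 1.91e-05). That of mca-2 averaged 101 ± 22.5 and 375 ± 83.7 CPM, a rise of 1.91 (SE 0.33, adjusted p = 0.000276), and that of mca-1 29.1 ± 19 and 265 ± 59.8 CPM, a rise of 3.21 (SE 0.54, adjusted p = 0.000181). Whole worms at 21% O2 averaged 124 CPM of mca-1 on day 1 and 264 CPM on day 7, and 61.6 and 37.6 CPM of mca-2. The part of other cells in these changes of the sorted libraries was not tested. The endoplasmic reticulum pump gene sca-1 rose by 0.85 (SE 0.28, adjusted p = 0.0312), and pmr-1, a Golgi Ca2+ pump gene, and the sodium pump subunit genes nkb-1 and nkb-3 were the other 3 that fell, with log2 changes of -1.54, -0.81 and -0.97. The mitochondrial genes mcu-1, micu-1 and letm-1 were not called with age in neurons.

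The genes most like each member over the 32 libraries were named by the Pearson correlation of log2 CPM, as a description, since the points share sample type, age and depth. For ncx-5 they were pghm-1 (r = 0.96), ric-4 (0.96) and unc-119 (0.96), of which unc-119 is also carried by the transgene of the strain. Its nearest member was ncx-4 (0.85), and gcy-37 had 0.90. For ncx-4 they were sad-1, pde-4 and pdfr-1 (0.92 to 0.93), and for ncx-2 unc-58, abts-1 and cpd-2 (0.89 to 0.90). The values were lower for ncx-3, with nab-1 first (0.82), and ncx-1, with asb-2 first (0.74). The neighbours ncx-8 and ncx-9 had each other as the nearest member (0.73), with F08D12.3 (0.87) and tsp-3 (0.84) first.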

How the data were processed

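The values are deposited counts of fragments per gene, which the authors made with Cutadapt 1.9, STAR 2.5.2b on WBcel235 and featureCounts 1.5.1, over exons and ignoring strand, with ribosomal RNA features removed. Total counts were 5365596 to 30666288 per library. Genes were kept by filterByExpr (minimum count 10), scaled by TMM and tested, two-sided, with edgeR 4.0.16 (robust quasi-likelihood) in R 4.3.3 over all kept genes. The SE was taken from the log2 change and its F statistic (size over root F). Neurons and whole worms were compared within 8 libraries, ages and O2 levels within the 16 of a sample type, and sample type interactions over all 32. Locations and exon lengths came from the Ensembl annotation of WBcel235. Ratios to gcy-37 and to the other O2-sensing neuron markers were tested with scipy 1.17.1, choices made after their values had been seen. Named genes are all members, the fixed list of other Ca2+ and Na+ genes, and the 3 genes nearest each member in log2 CPM (prior count 2) over 13327 kept genes. Members and lists were chosen with earlier results of these data known. Alternatives were DESeq2 1.42.0, its size factors (RLE), no filter, an adjusted p under 0.05, no minimum fold, the replicate number as a block, only the 2 groups compared, all 32 libraries, and leaving out each library. The tests were tested on simulated data. The authors state 4 independent biological replicates per condition. The SD and SE include the spread between replicate libraries. Floors cover counting error only, in the group with 0 counts, and amplified cDNA reads are not independent molecules. Sequences of the genes were not used here.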

Additional observations from a re-analysis of the deposited data

Results flagged for a closer look

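Among 63 pairs of a member and a group with at least 10 counts, 11 had a library whose gap to the others passed Dixon's critical value for 4 values. The rate of 1 in 20, about 3.1 pairs, holds for independent, normally distributed values. These are CPM, many from low counts, in pairs that share libraries, so 11 cannot be read as an excess. Where 3 libraries of a group had 0 counts, as for ncx-8 and ncx-10 in day 7 neurons at 7% O2, the rule is always passed. In neurons these were ncx-2 in day 1 neurons at 7% O2, replicate 2 (369 CPM), ncx-8 and ncx-9 in day 7 neurons at 21% O2, replicate 3 (38.8 and 30.0 CPM), and, at day 7 and 7% O2, ncx-8 in replicate 3 (0.700 CPM) and ncx-10 in replicate 4 (1.37 CPM). In whole worms they were, on day 1, ncx-3 (25.9 CPM, 7% O2, replicate 2), ncx-4 (9.0 CPM, 7% O2, replicate 3) and ncx-9 (1.59 CPM, 21% O2, replicate 3). On day 7 they were ncx-5 at 21% O2, replicate 3 (3.62 CPM), and at 7% O2, replicate 4 (2.96 CPM), and ncx-8 at 21% O2, replicate 4 (1.51 CPM, the lowest of its group).

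The change with age differed between neurons and whole worms in the interaction test for ncx-2 (-1.83 at 21% O2 and -2.82 at 7% O2), ncx-4 (-3.29 and -5.10) and ncx-5 (-4.82 and -7.74), each more negative in neurons. For ncx-5 the whole-worm side of this test rested on 14 to 37 counts per group of 4 libraries.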

How the results depend on the processing

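No log2 change called in the main fits turned sign under an alternative. For ncx-8 in neurons against whole worms on day 7 at 21% O2, the main value of 1.27 was not called. Without neuron replicate 3 it was -7.99 and called lower (adjusted p = 0.00692). Without the filter on low counts the number of ncx genes called rose from 3 to 5 for neurons against whole worms on day 1 at 21% O2 (ncx-7 and ncx-8 added, lower), from 3 to 5 for age in neurons at 21% O2 (ncx-8 and ncx-9), from 0 to 1 for the age by O2 term in neurons (ncx-5), from 3 to 5 for the sample type by age term at 21% O2 and from 0 to 3 for the sample type by O2 term on day 7 (ncx-5, ncx-8 and ncx-9). DESeq2 gave 5 in place of 3 for the sample type by age term at both O2 levels, and 1 in place of 0 for the sample type by O2 term on each day. The model of all 32 libraries gave 2 in place of 1 between O2 levels in day 7 neurons (ncx-9 added), 5 in place of 3 for age in neurons at 21% O2, 1 in place of 2 for age in whole worms at 21% O2 and 0 in place of 2 at 7% O2. Only the 2 groups compared gave 0 in place of 1 between O2 levels in day 7 neurons. Leaving out a library gave 1 to 2 (from 2) for age in whole worms at 7% O2 and 2 to 3 (from 2) at 21% O2, 2 to 5 (from 3) for the sample type by age term at 21% O2 and 3 to 4 (from 3) at 7% O2. For neurons against whole worms it gave 3 to 4 (from 3) on day 1 at 21% O2, 4 to 5 (from 5) at 7% O2, 2 to 4 (from 3) on day 7 at 21% O2 and 3 to 6 (from 4) at 7% O2, and in the other 10 comparisons the number was the same. The cause of these moves was not tested, beyond the genes and libraries each setting adds or removes. In day 7 neurons at 21% O2, all 499 counts of ncx-8 and 386 of the 388 of ncx-9 lay in replicate 3. Where a setting added these genes in a comparison with that group, their neuron value rested on this library.

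Each whole-worm aliquot came from a suspension that was then sorted, but the sources used here do not say that a shared replicate number marks a shared suspension. The correlation of same-numbered libraries' deviations ran from -0.117 to 0.368, in no comparison were all 4 over 0.1, and in 2 of 12 comparisons every library correlated best with its own number (neurons against whole worms on day 1 at 21% O2, 0.042 to 0.143, and O2 levels in whole worms on day 7). With the replicate number as a block, 4 in place of 5 members were called in neurons against whole worms on day 1 at 7% O2 (ncx-3 lost, log2 fold change 1.25, adjusted p = 0.133), 2 in place of 3 on day 7 at 21% O2 (ncx-1 lost, 1.46, adjusted p = 0.138), and 4 in place of 3 for the sample type by age term at 7% O2 (ncx-10 added, 6.84, adjusted p = 0.0827). In the other 15 comparisons the number was the same.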
